A study of Caenorhabditis elegans with 18 samples.

Results

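Small RNA libraries of 2 double mutants of Caenorhabditis elegans were compared. One is dpf-3(xe68);alg-1(gk214), called here the alg-1 double mutant or dpf-3;alg-1, and the other is dpf-3(xe68);alg-2(ok304), called the alg-2 double mutant or dpf-3;alg-2. The libraries were chosen by their titles and make up 6 of the 18 libraries of the study, 3 for each double mutant. The other 12 are 3 each of wild type (N2) and of the single mutants alg-2(ok304), alg-1(gk214) and dpf-3(xe68). Whole young adult worms of all 6 genotypes were raised at 25 °C on OP50 bacteria. Both double mutants carry the same dpf-3 allele, so they differ in which Argonaute gene is mutated, and miRNA counts cannot check the mutated genes themselves. Each library lists 176 names, of which mir-44 and mir-45, equal in every library, were summed, which left 175 miRNAs. Of these 139 passed a filter on low counts and were tested, and 36 did not.

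MiRNAs are short RNAs that are loaded into Argonaute proteins and guide them to messenger RNAs, which are then repressed. The main miRNA Argonautes of C. elegans are ALG-1 and ALG-2, which are partly redundant, and a miRNA that is not held by an Argonaute is generally unstable. dpf-3 encodes a dipeptidyl peptidase, an enzyme that trims the N-terminus of proteins. The comparison asks how the miRNA pool that remains with dpf-3 mutated differs when alg-1 or alg-2 is the other mutated gene.

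The dpf-3;alg-1 libraries held 12.9, 10.5 and 8.64 M (mega) counts and the dpf-3;alg-2 libraries 14.5, 7.78 and 14.0 M. No label states whether replicates came from separate cultures. The edgeR p-values thus reflect only the spread between libraries within a genotype, pooled over all 18 libraries, which may be technical. A library name is given in the labels of the 6 libraries with mutated alg-2, single and double, and not in those of the other 12. Every difference between the double mutants therefore also crosses these sets of libraries, so genotype cannot be told apart from set in it. In bulk RNA, fewer cells of a type and less miRNA per cell cannot be told apart either.

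The double mutants differed in most of the miRNAs tested. Of 139, 36 were higher in the alg-1 double mutant (25.9%) and 52 were lower (37.4%), together 88 (63.3%), at an adjusted p below 0.05 in edgeR's quasi-likelihood test. The difference was at least 2-fold for 14 of the higher (10.1% of those tested) and 20 of the lower (14.4%). The 3 libraries of one double mutant lay apart from those of the other for 95 miRNAs (68.3%), among them 35 of the 36 called higher and 51 of the 52 called lower. The median log2 difference over all 139 was -0.08. The split rests on the scaling: with upper quartile factors in place of TMM factors the median of all miRNAs was -0.90, and 10 were called higher and 102 lower. Differences below are on the TMM scale, and a direction that turns with upper quartile factors is named as such beside its value. Counts of list members below are to be read beside the shares of all 139 given here.

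**Figure D1:**
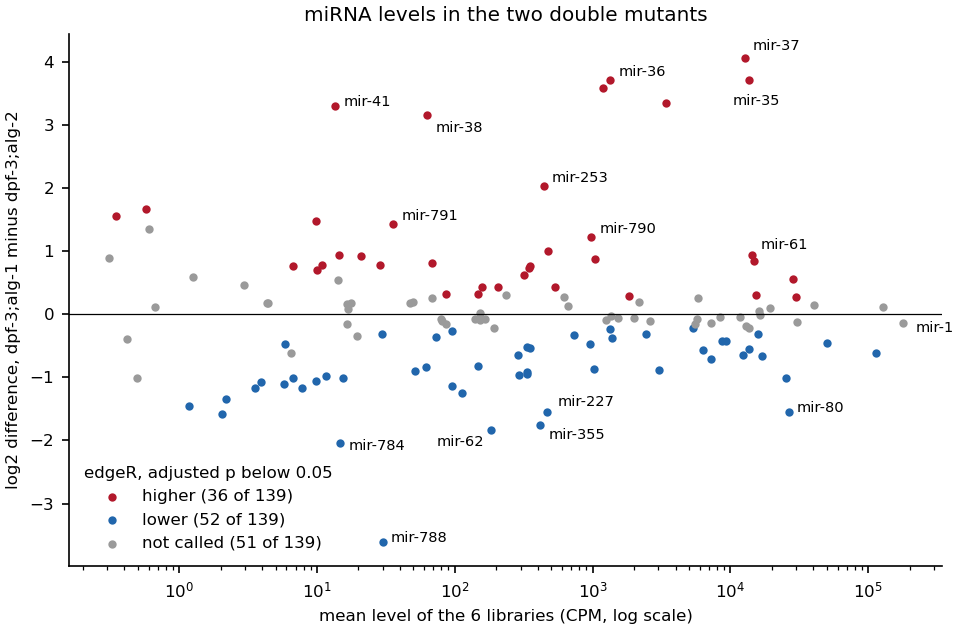
Log2 difference of dpf-3;alg-1 from dpf-3;alg-2 (vertical axis) against the mean level of both double mutants in CPM (horizontal, log scale), 1 point per miRNA, coloured by call. 138 of the 139 tested miRNAs are drawn, without mir-799, which had no count in dpf-3;alg-1. Of the mir-35 family 7 of 8 members stand above all other miRNAs, up to 4.06 for mir-37, and mir-788 lies lowest at -3.60.

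The mir-35 family, 8 miRNAs with a common seed that are made in oocytes and embryos and are needed for embryonic development, held the largest positive differences. mir-35 itself stood at 39025, 18730 and 18465 CPM in the 3 alg-1 double mutant libraries and at 1833, 2211 and 1804 CPM in the 3 alg-2 double mutant libraries. The lowest alg-1 double mutant library was above the highest alg-2 double mutant library, and replicate 1 of the alg-1 double mutant was the high one of its group. The log2 difference of mir-35 was 3.70 (SE 0.29, edgeR adjusted p = 2.99e-08). mir-37 stood at 37017, 17278 and 17530 CPM against 1514, 1301 and 1498 CPM, a log2 difference of 4.06 (SE 0.29). Again the groups did not overlap and replicate 1 of the alg-1 double mutant was the high one.

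Of the 8 family members 7 were higher in the alg-1 double mutant and none lower, with a median log2 difference of 3.46 against -0.08 over all miRNAs. The other 5 of these 7 were mir-36 at 3.70 (SE 0.28), mir-40 at 3.58 (SE 0.32), mir-39 at 3.34 (SE 0.33), mir-41 at 3.30 (SE 0.41) and mir-38 at 3.15 (SE 0.46). The log2 difference of mir-38 was 2.54 without replicate 1 of the alg-1 double mutant. mir-41 was by far the rarest, with 35.5, 22.8 and 14.5 CPM against 2.34, 4.41 and 1.30 CPM. mir-42 was the exception. It stood at 164, 296 and 315 CPM in the alg-1 double mutant and at 164, 224 and 242 CPM in the alg-2 double mutant, so the libraries overlapped, and its log2 difference of 0.30 (SE 0.39) did not pass the test. It was -0.50 with upper quartile factors, again not past the test. The 7 that were higher are neighbours in the genome, while mir-42 lies beside mir-43 and mir-44.

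As a share of all counts, which does not depend on scaling factors, the family took 9.05%, 4.88% and 4.75% in the alg-1 double mutant and 0.453%, 0.466% and 0.440% in the alg-2 double mutant. The means were 6.23% ± 2.45 and 0.453% ± 0.0132 (SD, n = 3), a difference of 5.77 percentage points. This larger share in the alg-1 double mutant lowers the shares of all other miRNAs there. A two-sided exact permutation test gave p = 0.1, the smallest that 3 against 3 libraries allows, and 0.12 after adjustment over 6 families. No other marker of oocytes or embryos was counted, so the part of their number in the difference was not tested.

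**Figure D2:**
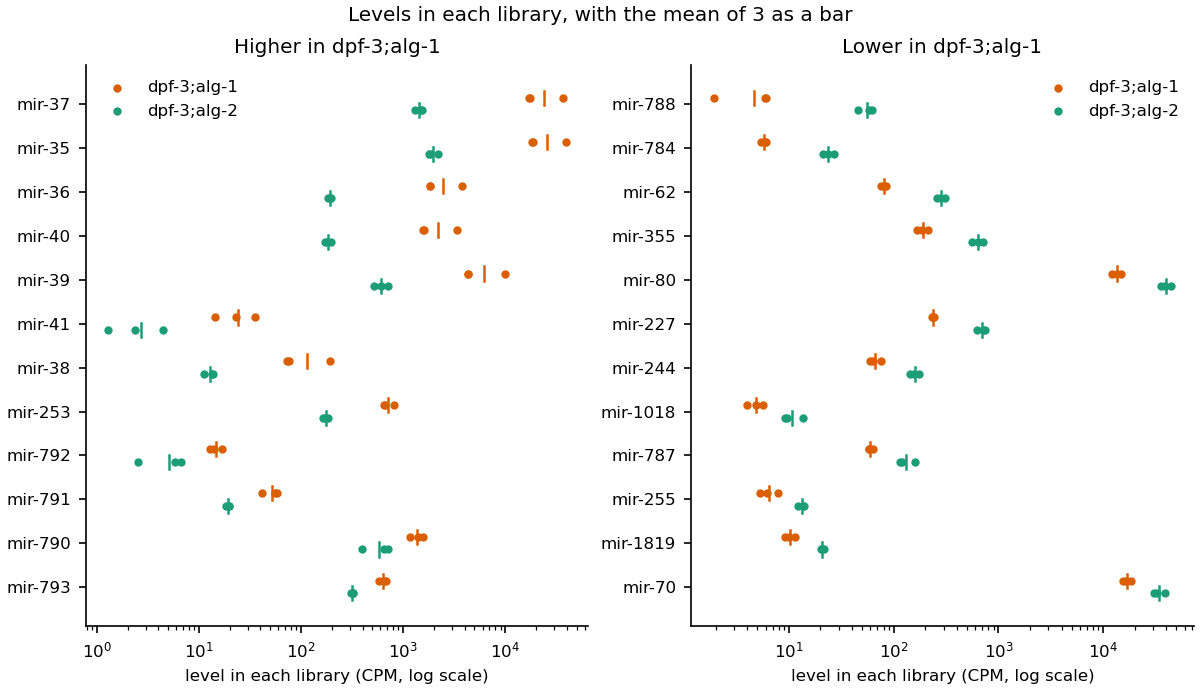
CPM (log scale) in each of the 6 double mutant libraries for the 12 largest positive and 12 largest negative differences, 1 row per miRNA and a panel for each direction, with 3 points for each double mutant and a bar at their mean. In every row the points of one genotype lie apart from those of the other, as for mir-37, at the top of the higher panel, with 37017, 17278 and 17530 against 1514, 1301 and 1498 CPM, and for mir-788, at the top of the lower panel, with 1.92, 6.03 and 5.90 against 46.1, 57.5 and 62.3 CPM.

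Outside that family the largest positive difference among miRNAs with at least 10 CPM was that of mir-253. It stood at 818, 645 and 662 CPM in the alg-1 double mutant and at 172, 184 and 165 CPM in the alg-2 double mutant, and the log2 difference was 2.03 (SE 0.18, edgeR adjusted p = 3.68e-08). All alg-1 double mutant libraries were above every other library of the study, in which the group means ranged from 119 CPM in alg-1 to 335 CPM in wild type. mir-792 followed at 14.1, 16.7 and 12.9 CPM against 5.85, 2.54 and 6.71 CPM, with a log2 difference of 1.47 (SE 0.27).

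All 5 miRNAs taken as neuron markers were higher in the alg-1 double mutant, with a median log2 difference of 1.004. The list was chosen with earlier results of these data known. mir-791, found in the neurons that sense carbon dioxide, stood at 41.9, 55.0 and 58.8 CPM against 19.5, 18.6 and 19.8 CPM (log2 1.42, SE 0.16). mir-790 stood at 1163, 1388 and 1551 CPM against 710, 395 and 651 CPM (log2 1.22, SE 0.22). mir-793 stood at 576, 656 and 680 CPM against 310, 320 and 324 CPM (log2 1.004, SE 0.13). For all 3 of them the groups lay apart by a wide margin, and the alg-2 double mutant libraries held the lowest levels of the study for mir-791 and mir-793.

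lsy-6, which sets the left and right identity of a pair of taste neurons, stood at 27.2, 27.6 and 27.4 CPM against 13.3, 15.8 and 14.3 CPM (log2 0.93, SE 0.19). mir-124, of ciliated sensory neurons, stood at 12.9, 15.8 and 11.8 CPM against 8.19, 9.90 and 6.06 CPM. Its log2 difference was 0.77 (SE 0.17) and was -0.052, not past the test, with upper quartile factors. With those factors 1 of the 5 markers passed the test, and the median of the list was 0.19 where that of all miRNAs was -0.90. The summed level of the list ranged from 1821 to 2329 CPM in the alg-1 double mutant and from 759 to 1062 CPM in the alg-2 double mutant.

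Of the markers of glia, muscle and intestine none was called higher and 1 was lower, and all 4 were called lower with upper quartile factors. mir-228, expressed in glia, had a log2 difference of -0.15 (SE 0.13), and mir-1, the muscle miRNA and the most abundant of all, one of -0.15 (SE 0.10). Neither passed the test, nor did mir-60 of the intestine at -0.06 (SE 0.11). mir-243, the other miRNA of the intestine list, which is known to bind the RNA interference Argonaute RDE-1, was lower in the alg-1 double mutant. It stood at 232, 227 and 233 CPM against 454, 396 and 456 CPM, a log2 difference of -0.92 (SE 0.15), and the groups did not overlap.

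Several abundant miRNAs were also higher in the alg-1 double mutant. mir-61, known for its part in patterning the vulval precursor cells, stood at 20790, 17415 and 18626 CPM against 9754, 9685 and 10229 CPM, a log2 difference of 0.94 (SE 0.11). Its genomic neighbour mir-250 was higher by 0.88 (SE 0.11). mir-51 stood at 21357, 18436 and 17788 CPM against 11260, 10457 and 10393 CPM, a log2 difference of 0.84 (SE 0.16). For each of these the groups were well apart on the TMM scale. With upper quartile factors the log2 differences of mir-61, mir-250 and mir-51 shrank to 0.12, 0.05 and 0.02, and the calls were lost.

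The mir-51 family, whose members act redundantly in embryonic development and pharynx attachment, split by member. Of its 6 members 3 were higher and none lower, against 25.9% and 37.4% of all tested, with a median of 0.11. None was higher and 5 were lower with upper quartile factors, for a median of -0.70 (102 of all 139 lower, median -0.90). mir-52 had 0.27 (SE 0.09) and mir-53 had 0.29 (SE 0.11), and both were lower with upper quartile factors, at -0.54 and -0.53. mir-54, mir-55 and mir-56, neighbours of each other, had values of -0.15, -0.21 and -0.05 and did not pass, and mir-54 was called lower, at -0.30, without replicate 2 of the alg-2 double mutant. The call of mir-52 was lost without replicate 1 of the alg-2 double mutant (adjusted p = 0.0639 in edgeR). That of mir-53 was lost without replicate 1 or 2 of either double mutant (adjusted p from 0.0588 to 0.0964 in edgeR). As a share of counts the family took 8.77% ± 0.356 in the alg-1 double mutant and 7.10% ± 0.303 in the alg-2 double mutant (SD, n = 3, exact permutation p = 0.1, adjusted 0.12).

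**Figure D3:**
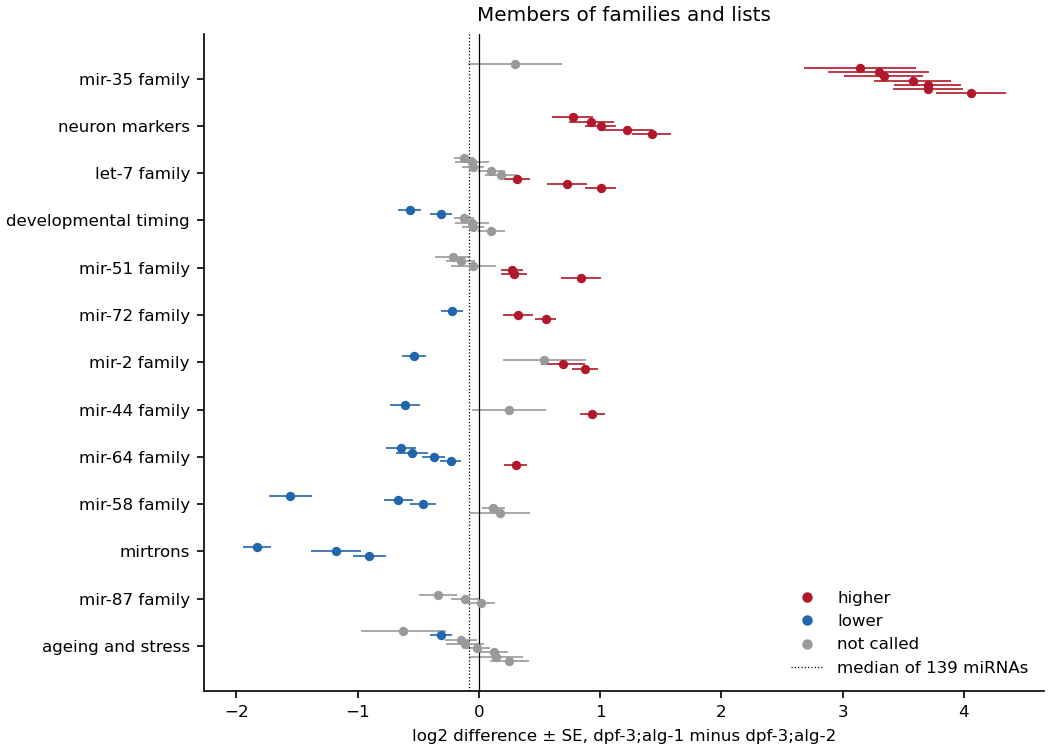
Log2 difference of dpf-3;alg-1 from dpf-3;alg-2 for every tested member of 13 families and lists, 1 row each, with bars of 1 SE, points coloured by call and a dotted line at the median of all miRNAs. The 7 called members of the mir-35 family lie between 3.15 and 4.06 and the 5 neuron markers between 0.77 and 1.42, while the 3 mirtrons lie between -1.83 and -0.90.

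Among the lower miRNAs mir-788 had the largest difference with counts in both groups. It stood at 1.92, 6.03 and 5.90 CPM in the alg-1 double mutant and at 46.1, 57.5 and 62.3 CPM in the alg-2 double mutant. Every alg-1 double mutant library was below every other library of the study, whose group means ranged from 17.5 CPM in wild type to 73.3 CPM in dpf-3. The log2 difference was -3.60 (SE 0.45, edgeR adjusted p = 5.17e-06). mir-784 stood at 5.99, 5.85 and 5.47 CPM against 27.0, 21.0 and 23.4 CPM, a log2 difference of -2.05 (SE 0.14). Both groups were tight and far apart.

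Mirtrons, miRNAs whose precursor is a short intron released by splicing without the enzyme Drosha, were lower in the alg-1 double mutant for all 3 tested of the 4 listed, with a median log2 difference of -1.18. mir-62 stood at 80.9, 84.5 and 75.4 CPM against 312, 260 and 284 CPM, a log2 difference of -1.83 (SE 0.12, edgeR adjusted p = 1.92e-09). Its alg-1 double mutant libraries were the lowest of the study and its alg-2 double mutant libraries the highest. mir-1018 had -1.18 (SE 0.20) at low levels, 3.99, 4.82 and 5.68 CPM against 9.09, 9.50 and 13.8 CPM. mir-1020 stood at 37.4, 33.1 and 36.9 CPM against 72.0, 55.5 and 72.8 CPM (log2 -0.90, SE 0.13). mir-1019, the member not tested, had 1 count in each double mutant.

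The mir-58 family, related to the bantam miRNA of flies and the most abundant family in these worms, was lower for 3 of the 5 tested of its 6 listed members and higher for none, with a median of -0.46 (5 lower and -1.29 with upper quartile factors). Of all tested miRNAs 37.4% were lower, and 102 of 139 with upper quartile factors. mir-80, which in worms is linked to the response to dietary restriction, stood at 14705, 12191 and 13495 CPM against 39056, 44262 and 35284 CPM. Its log2 difference was -1.55 (SE 0.18), and all alg-1 double mutant libraries were below every other library. mir-81 was lower too, at -0.66 (SE 0.12), as was mir-82 at -0.46 (SE 0.11). mir-58, the largest member, stood at 145821, 130873 and 126327 CPM against 118197, 138511 and 114434 CPM, and the groups overlapped. Its log2 difference of 0.12 (SE 0.09) did not pass, and with upper quartile factors it was -0.71 and passed. The family took 21.2% ± 0.414 of the counts in the alg-1 double mutant and 23.8% ± 1.61 in the alg-2 double mutant (SD, n = 3, exact permutation p = 0.1, adjusted 0.12). The larger mir-35 family share in the alg-1 double mutant (mean 6.23% against 0.453%) lowers the mir-58 family share there, so the shares do not show a lower level by themselves.

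mir-227 stood at 230, 239 and 244 CPM against 747, 625 and 719 CPM, a log2 difference of -1.55 (SE 0.12). mir-355 stood at 215, 187 and 168 CPM against 711, 644 and 564 CPM, a log2 difference of -1.75 (SE 0.14). mir-244 stood at 59.8, 75.7 and 63.5 CPM against 156, 174 and 145 CPM, a log2 difference of -1.25 (SE 0.18). In all 3 cases each alg-1 double mutant library lay below each alg-2 double mutant library. mir-70 was lower at a far higher level, with 18530, 15479 and 16529 CPM against 32512, 38604 and 30421 CPM (log2 -1.01, SE 0.11). The others of the 12 largest negative differences were mir-787 at -1.13, mir-255 at -1.06 and mir-1819 at -1.02.

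mir-799 is named because its values stood out once seen. It had no count in any alg-1 double mutant library and 77, 57 and 91 counts in the 3 alg-2 double mutant libraries. Against the limit that 0 allows, 3 counts over the group, its level in the alg-1 double mutant was at least 66.5-fold lower. The same miRNA had 1 count over the 3 alg-1 libraries, 337 in alg-2, 412 in dpf-3 and 223 in wild type. Both genotypes with mutated alg-1 thus held at most 1 count of it, and the 4 others held 223 or more.

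Of the timing miRNAs, which move worms from one larval stage to the next, most did not pass the test between the double mutants. let-7 stood at 20577, 19000 and 20864 CPM against 15596, 21705 and 18908 CPM, so the groups overlapped. Its log2 difference of 0.10 (SE 0.11) did not pass, and with upper quartile factors it was -0.72. mir-48, mir-84 and mir-241 had log2 differences of -0.12, -0.05 and -0.06 and did not pass. lin-4, the founding member of the miRNA class, was lower at -0.31 (SE 0.09) and mir-237, which shares its seed, at -0.57 (SE 0.09). The call of lin-4 was lost with RLE factors, no composition factors, the mir-35 family removed, a filter of 1 count in any library, and DESeq2. In the 6 double mutant libraries alone with a replicate block it was lost too (edgeR adjusted p = 0.0617). Of the 6 timing miRNAs none was higher and 2 were lower, against 25.9% and 37.4% of all tested, with a median of -0.09. All 6 were lower with upper quartile factors, for a median of -0.91. With those factors 102 of all 139 were lower, for a median of -0.90.

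Of the 8 let-7 family members 3 were higher (25.9% of all tested), none lower (37.4% of all tested) and 5 did not pass, with a median of 0.14. None was higher and 6 were lower with upper quartile factors, for a median of -0.68 (102 of all 139 lower, median -0.90). The 3 were mir-793, mir-795 at 0.73 (SE 0.17) and mir-794 at 0.32 (SE 0.11). With upper quartile factors mir-795 was at -0.093 and mir-794 at -0.50, and the call of mir-794 was also lost without replicate 1 of the alg-1 double mutant or replicate 2 of the alg-2 double mutant. As a share of counts the family took 6.32% ± 0.126 and 6.05% ± 0.178 (SD, n = 3, exact permutation p = 0.2, adjusted 0.2).

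The mir-64, mir-44 and mir-2 families each split in direction between members on the TMM scale. No member was called higher with upper quartile factors, and 5, 1 and 1 were lower. In the mir-64 family 4 of 5 were lower, among them mir-65 at -0.64 (SE 0.12) and mir-64 at -0.55 (SE 0.13). The call of mir-229 (-0.23, SE 0.08) was lost without replicate 2 or 3 of the alg-1 double mutant or replicate 1 or 3 of the alg-2 double mutant, and also with RLE factors and DESeq2. The fifth member, mir-66, was higher at 0.31 (SE 0.09), but lower at -0.52 with upper quartile factors and without a call when replicate 1 of the alg-1 double mutant was left out. In the mir-44 family, which promotes the sperm fate of germ cells, mir-61 was higher and mir-44/45 lower. mir-44/45 stood at 78674, 97250 and 97456 CPM against 138338, 127519 and 151165 CPM, a log2 difference of -0.61 (SE 0.12), and the groups were apart. In the mir-2 family mir-43 (0.70, SE 0.18) and mir-250 were higher and mir-2 was lower (-0.53, SE 0.10), and mir-43 was at -0.11 with upper quartile factors.

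The shares of counts gave the mir-64 family 4.19% ± 0.168 and 4.73% ± 0.378 and the mir-2 family 0.173% ± 0.00929 and 0.115% ± 0.0118 in the alg-1 double mutant and the alg-2 double mutant (SD, n = 3, exact permutation p = 0.1 each, adjusted 0.12). The larger mir-35 family share in the alg-1 double mutant lowers both shares there, so the mir-64 shares do not show a lower level by themselves. In the mir-72 family mir-72 (0.55, SE 0.09) and mir-74 (0.32, SE 0.12) were higher and mir-73 lower (-0.22, SE 0.09). With upper quartile factors mir-72 and mir-74 were at -0.27 and -0.49. The call of mir-74 was lost when any library but replicate 3 of the alg-2 double mutant was left out, and that of mir-73 when any of the 6 was left out. The call of mir-73 was also lost with RLE factors, no composition factors, the mir-35 family removed, the other filters, DESeq2 and replicate blocks.

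Of 8 miRNAs linked to ageing and stress 1 was lower, lin-4, and 7 did not pass, with a median of -0.07. Of all 139 tested 37.4% were lower. All 8 were lower with upper quartile factors, for a median of -0.88, where 102 of all 139 were lower, for a median of -0.90. Of the 7, mir-239b (-0.62, SE 0.35) was called lower, at -1.07, without replicate 2 of the alg-1 double mutant. mir-71, which promotes long life, stood at 53962, 35688 and 37400 CPM against 45161, 36812 and 33144 CPM, and the groups overlapped. mir-34 had a log2 difference of 0.12 (SE 0.12) and mir-246 one of 0.25 (SE 0.16), and all 3 were below 0 with upper quartile factors, mir-71 at -0.69, mir-34 at -0.70 and mir-246 at -0.58. None of the 3 tested members of the mir-87 family passed, with a median of -0.12. All 3 were lower with upper quartile factors, for a median of -0.93, and mir-233 turned from 0.02 to -0.80.

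The 10 most abundant miRNAs of the 6 libraries held members called in either direction. mir-1 took 17.8% ± 0.853 of the counts in the alg-1 double mutant and 18.5% ± 1.17 in the alg-2 double mutant, and mir-58 took 14.1% ± 0.413 and 12.2% ± 1.003 (SD, n = 3). mir-44/45, mir-70, mir-80 and mir-82 were the lower ones of the 10. mir-52 and mir-72 were the higher ones on the TMM scale, both below 0 with upper quartile factors as given above, and mir-1, mir-58, mir-71 and mir-48 did not pass.

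The median spread between replicates was of the same order in both double mutants, but the alg-1 double mutant held more miRNAs of wide spread. Over the 117 miRNAs whose mean reached 10 CPM in the higher double mutant, the median coefficient of variation was 8.30% in the alg-1 double mutant and 9.35% in the alg-2 double mutant. It was over 30% for 11 miRNAs in the alg-1 double mutant, among them every member of the mir-35 family, led by mir-38 at 59.3%. In the alg-2 double mutant it was over 30% for 2. These 2, mir-41 at 59.1% and mir-792 at 43.7%, had means of only 2.68 and 5.03 CPM there. Of the 5 most variable in the alg-1 double mutant, 4 were of the mir-35 family (mir-37, mir-38, mir-39 and mir-40). The other was mir-788, with a mean of only 4.61 CPM there. By chi-square per degree of freedom of the counts, replicate 1 of the alg-1 double mutant stood off from replicates 2 and 3, at 1973 and 1779. Between replicates 2 and 3 the value was 81.25. Pairs of alg-2 double mutant libraries had 704.8 to 722.7.

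The 36 miRNAs below the filter held 0.00023% of the counts of the 6 libraries. Of these, 14 had no count in any of the 18 libraries and 19 had none in the 6 double mutant libraries. The other 17 had at most 9 counts in a double mutant library. A count of 0 allows a level of up to 0.232 to 0.347 CPM in an alg-1 double mutant library and 0.207 to 0.385 CPM in an alg-2 double mutant library, and these limits cover counting error only.

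Set among all 6 genotypes, few of these differences were extremes of the study. The 3 alg-1 double mutant libraries were above all 15 others for 2 of the 139 miRNAs (1.44%), mir-253 and mir-795. They were below all 15 others for 7 (5.04%), namely mir-2, mir-49 (named for this pattern after its values were seen), mir-62, mir-80, mir-227, mir-243 and mir-788. The alg-2 double mutant libraries were below all others for 2 (1.44%), mir-791 and mir-793, and above all others for 4 (2.88%), mir-62, mir-81, mir-255 and mir-786.

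The 6 libraries with a library name stood apart from the other 12 for 4 of the 139 miRNAs. mir-36 and mir-39 were lower in all 6 than in any of the 12 (1.44%), and mir-237 and mir-85 were higher (1.44%). For the other 84 of the 88 called miRNAs, levels in the sets overlapped, as they did for all but 4 of the 139 tested. Differences between genotypes within a set also make the sets overlap, so overlap cannot show that the sets are alike. Within its own set of 12 libraries, the alg-1 double mutant lay above the 9 others for 7 of the 139 miRNAs (5.04%) and below them for 10 (7.19%). Of the 7, 4 were called higher between the double mutants, against 25.9% of all tested, and all 10 were called lower, against 37.4%. The same alg-1 double mutant libraries enter both comparisons, so these counts are no separate support for the calls.

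**Figure D4:**
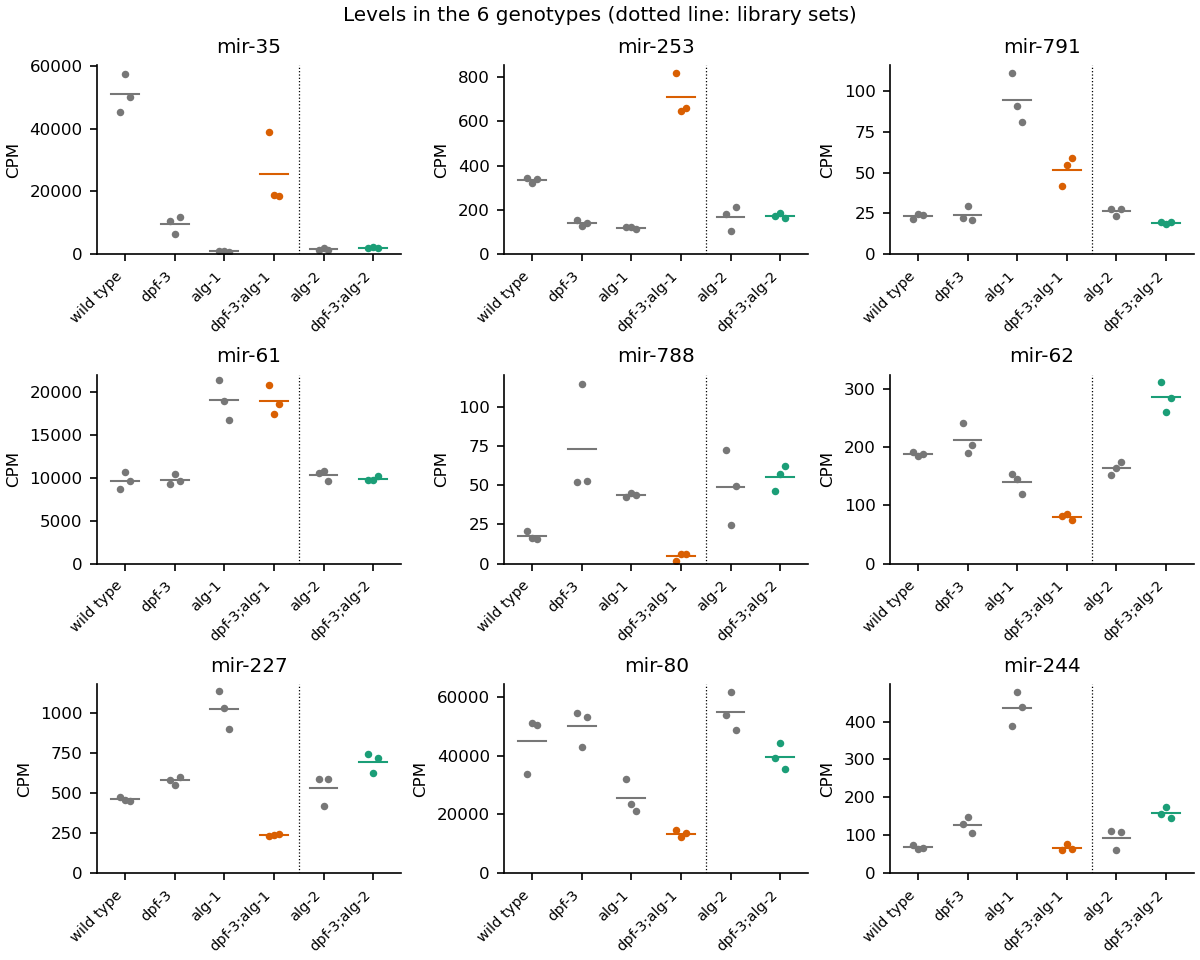
CPM in all 18 libraries for 9 miRNAs, 1 panel each on a linear scale from 0, with 3 points per genotype, a bar at their mean and a dotted line between the library sets. mir-35 is highest in wild type (mean 50947 CPM) and dpf-3;alg-1 (25406) and stands at 1949 in dpf-3;alg-2 and 1568 in alg-2. mir-62, mir-80, mir-227 and mir-788 are lowest in dpf-3;alg-1.

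The levels by genotype place each double mutant. The mean of mir-35 was 884 CPM in the alg-1 single mutant, 1568 in the alg-2 single mutant and 1949 in the alg-2 double mutant, then 9551 in dpf-3, 25406 in the alg-1 double mutant and 50947 in wild type. mir-61 had means of 18944 CPM in the alg-1 double mutant and 19039 in alg-1, and of 9646 to 10313 CPM in the 4 other genotypes. mir-80 had 13464 CPM in the alg-1 double mutant, 25534 in alg-1 and 39534 to 54746 CPM in the 4 others.

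The same Argonaute difference was measured with dpf-3 intact, between alg-1 and alg-2, in libraries that the double mutant comparison does not share. Between these single mutants 58 of the 139 miRNAs were higher in alg-1 (41.7%) and 57 lower (41%), together 115 (82.7%). The median absolute log2 difference was 1.04 between the single mutants and 0.54 between the double mutants, and the difference was called and at least 4-fold for 25 and 11 miRNAs. Of the 25, 2 were also called and at least 4-fold between the double mutants, mir-784 and mir-799, and 9 were not called there. Over all 139 tested, 11 were called and at least 4-fold between the double mutants and 51 were not called, so neither count sets the 25 apart.

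Of the 58 higher in alg-1 than in alg-2, 22 were also higher in the alg-1 double mutant than in the alg-2 double mutant (37.9% of the 58 and 61.1% of the 36), 11 were lower and 25 were not called. Of the 57 lower, 34 were also lower (59.6% of the 57 and 65.4% of the 52), 7 were higher and 16 were not called. Over all 139, 25.9% were higher, 37.4% were lower and 51 miRNAs were not called between the double mutants. These overlaps are on the TMM scale. With upper quartile factors 10 were called higher and 102 lower between the double mutants, and 69 and 42 between the single mutants. Both comparisons cross the library sets in the same way.

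**Figure D5:**
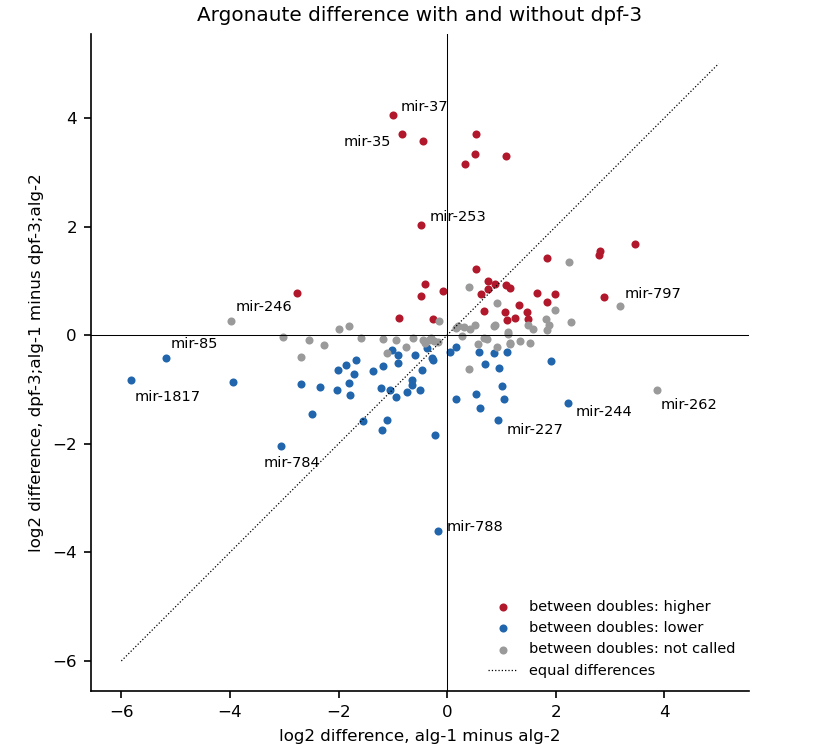
Log2 difference of dpf-3;alg-1 from dpf-3;alg-2 (vertical axis) against that of alg-1 from alg-2 (horizontal), 1 point per miRNA coloured by the call between the double mutants, 138 of 139 drawn, without mir-799. Of the mir-35 family 7 members lie far above the diagonal of equal differences, mir-37 at 4.06 and -1.002, while mir-85, mir-246 and mir-1817 lie at the far left, between -0.83 and 0.25 on the vertical axis, and mir-244 and mir-227 lie at the lower right.

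Whether the Argonaute difference changed with dpf-3 was tested directly, as the difference between the double mutants minus that between the single mutants. A constant difference between the library sets cancels in it on the log scale. It passed the edgeR test for 92 of 139 miRNAs (66.2%), 43 above 0 (30.9%) and 49 below 0 (35.3%). With upper quartile factors these were 18 and 96, and the median over all miRNAs moved from -0.17 to -1.34. The values named below moved with it, among them mir-37 to 3.89 and mir-244 to -4.66, which both still passed.

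The mir-35 family was the largest case. mir-37 was lower in alg-1 than in alg-2 by -1.002 on the log2 scale and higher by 4.06 in the double mutants, a difference of 5.06 (SE 0.38). Of the 8 members 7 passed above 0 and 1, mir-42, below 0, and with upper quartile factors mir-41 no longer passed. mir-85 was at -5.18 between the single mutants and -0.42 between the double mutants, mir-1817 at -5.83 and -0.83, and mir-246, linked to lifespan, at -3.97 and 0.25. In the alg-1 single mutant the means of these 3 were 263.5 CPM for mir-85, 1.33 for mir-1817 and 205 for mir-246. In the alg-1 double mutant they were 7929 CPM for mir-85, 44.8 for mir-1817 and 6342 for mir-246.

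let-7 was at -1.98 (SE 0.12) between the single mutants and 0.10 between the double mutants, a difference of 2.09 (SE 0.16, edgeR adjusted p = 3.92e-09). Its mean was 5371 CPM in the alg-1 single mutant and 21240 in the alg-2 single mutant, against 20147 and 18736 in the respective double mutants, so alg-1 was the low genotype of the 4. The difference of let-7 was 0.92 (SE 0.20) with upper quartile factors, which passed. mir-240 and its neighbour mir-786, which act in the rhythm of defecation and were chosen here after their values were seen, were at -3.02 and -2.55 between the single mutants and at -0.03 and -0.10 between the double mutants.

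In the other direction mir-244 was at 2.22 between the single mutants and at -1.25 between the double mutants, a difference of -3.47 (SE 0.26). mir-227 also turned, from 0.94 to -1.55. mir-788 was at -0.17 (SE 0.37), not past the test, between the single mutants and at -3.60 between the double mutants. mir-797 was at 3.19 and 0.54 (-0.26 with upper quartile factors, neither past the test in the double mutants) and mir-789 at 1.91 and -0.47. The call of mir-789 in the double mutants was lost when any library but replicate 2 of the alg-2 double mutant was left out. It was also lost with RLE factors, no composition factors, the mir-35 family removed, the other filters, DESeq2, limma-voom and replicate blocks. mir-62 went from -0.23 (SE 0.11), not past the test, to -1.83. With upper quartile factors the single mutant values of mir-788 and mir-62 were 0.21 and 0.12, again not past the test.

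The neuron markers were higher in both comparisons. All 5 were higher in alg-1 than in alg-2, with a median log2 difference of 1.09 against 1.004 in the double mutants, and the difference between the comparisons passed the test for mir-124 (-0.87, SE 0.23) and for none of the other 4. With upper quartile factors that difference was below 0 for all 5 and passed for 4, the exception being mir-790 at -0.45 (SE 0.31). mir-61 was at 0.88 and 0.94, mir-51 at 0.75 and 0.84, and mir-70 at -1.05 and -1.01. For these 3 the differences between the comparisons were 0.05 (SE 0.15), 0.09 (SE 0.23) and 0.04 (SE 0.15), and with upper quartile factors -1.11, -1.07 and -1.13, which passed.

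Neighbouring miRNA genes, which may be cut from the same primary transcript, were called in the same direction in some groups and not in others. In the RefSeq gene table of WBcel235, which matched 152 of 176 names, 12 groups within 1000 bases had at least 2 tested members. In 4 groups every tested member was called in the same direction: mir-35 to mir-41 and the pair mir-250 and mir-61 were higher, and the pairs mir-359 and mir-785 and mir-2212 and mir-1819 were lower. Of these, mir-359, mir-785 and mir-2212 are named for this pattern, after their values were seen. The calls of mir-250 and mir-61 were lost with upper quartile factors, at 0.05 and 0.12. Over all 139 tested, 25.9% were called higher and 37.4% lower. In 3 groups members were called in opposite directions, among them mir-66 (0.31) beside mir-64 (-0.55) and mir-43 (0.70) beside mir-44/45 (-0.61). The higher members mir-66, mir-43 and mir-74 were below 0 with upper quartile factors, and none of these groups held opposite calls. In 3 groups none was called, among them mir-240 and mir-786.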

How the data were processed

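Small RNA from whole young adult worms was made into libraries with a NEBNext kit after selection of a gel band near 140 bp, per the labels' protocols. The authors deposited expected counts per miRNA. Bowtie 0.12.7 is named in the submitters' processing notes. Which build and miRNA annotation were used is not given in the sources used here. Whole numbers made up 75% to 86.9% of a library's values (tolerance 1e-06), and the fractions make levels of near-identical miRNAs uncertain. The expected counts were rounded to whole numbers.

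Counts were tested with edgeR 4.0.16 (R 4.3.3), robust quasi-likelihood, with TMM factors (0.876 to 1.10), a filter of 10 counts and 15 in total, and all 18 libraries in the model with genotype as the term (12 residual degrees of freedom). The biological coefficient of variation was 14.0%. p-values were adjusted by Benjamini-Hochberg over 139 miRNAs. SE is the log2 difference over the root of F. CPM are counts over library total and TMM factor. The steps were tested on simulated counts with known changes in random directions and TMM factors only, which does not test the choice of scaling.

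Named are up to 12 of the largest differences in each direction among called miRNAs with at least 10 CPM and no overlap between libraries. That level was asked of the mean in the higher double mutant (33 higher and 42 lower qualified). The 5 largest in each direction of the difference of differences needed a mean of 10 CPM in the highest of the genotypes compared. The 10 most abundant and members of the lists are named too. Members and lists were chosen with earlier results of these data known. Alternatives were other scaling factors, filters, DESeq2 1.42.0, limma-voom (limma 3.58.1), fewer libraries and replicate blocks. No pair of replicates agreed within sampling noise. Sequences and coordinates were not used here.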

Additional observations from a re-analysis of the deposited data

Results flagged for a closer look

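For 92 miRNAs the difference between the double mutants differed from that between the single mutants, by edgeR's test of the difference of differences at an adjusted p below 0.05. The 5 largest in each direction among those with a mean of at least 10 CPM in the highest of the 4 genotypes are listed here as log2 values. mir-789 reached that level in alg-1 alone, with means of 20.9 CPM in alg-1, 5.52 in alg-2, 4.92 in dpf-3;alg-1 and 6.76 in dpf-3;alg-2. Above 0 were mir-37 at 5.06, mir-1817 at 4.998, mir-85 at 4.76, mir-35 at 4.53 and mir-246 at 4.23. Below 0 were mir-244 at -3.47, mir-788 at -3.44, mir-797 at -2.65, mir-227 at -2.49 and mir-789 at -2.38. All 10 compare 3 libraries in each of 4 genotypes.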

How the results depend on the processing

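The largest change came with upper quartile factors, with which 10 miRNAs were called higher and 102 lower between the double mutants, and 18 and 96 in the difference of differences. Of 79 named miRNAs and 1490 values under the alternatives, 1325 kept their sign and side of the threshold, 70 lost a call and 24 gained one. A further 54 changed sign with neither value called, 51 of them in 15 miRNAs with log2 differences of at most 0.17 in size and 3 with upper quartile factors (mir-42 -0.50, mir-247 -0.55, mir-797 -0.26). In 17, all with upper quartile factors, a called value changed sign. These log2 values were -0.72 for let-7, -0.052 for mir-124, -0.63 for mir-1821, -0.65 for mir-2209a, -0.80 for mir-233, -0.58 for mir-246, -0.70 for mir-34, -0.11 for mir-43, -0.54 for mir-52, -0.53 for mir-53, -0.71 for mir-58, -0.52 for mir-66, -0.69 for mir-71, -0.27 for mir-72, -0.49 for mir-74, -0.50 for mir-794 and -0.093 for mir-795, and the cause was not tested. Of 54 called named miRNAs, 34 kept their call and sign under every alternative run, and 44 with upper quartile factors aside.

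With other factors the double mutants gave 39 higher and 43 lower (RLE), 41 and 43 (none), 37 and 42 (mir-35 family removed), 38 and 43 (DESeq2) and 36 and 52 (limma-voom). Leaving out each library in turn gave 30 to 34 higher and 46 to 50 lower, 54 to 60 and 51 to 60 for the single mutants, and 40 to 49 and 48 to 52 for the difference of differences. As shares of counts outside the mir-35 family, the let-7 family differed by 0.672 and the mir-51 family by 2.22 percentage points.

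Replicate numbers were not taken as pairs: same-numbered libraries of the double mutants deviated with correlations from -0.159 to 0.337, 2 of 3 over 0.1, and 4 of 6 libraries correlated best with their own number. With a replicate block over all libraries 37 were higher and 50 lower, within each library set 35 and 49, and in the 6 double mutant libraries alone, an alternative chosen after seeing the data, 38 and 46 (38 and 47 without the block). Depth limits miRNAs below about 0.4 CPM, and the library sets cannot be told apart from the Argonaute genotypes.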
